A study of Homo sapiens with 96 samples.

Results

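The replication-dependent histone genes are the clustered genes that supply new H1, H2A, H2B, H3 and H4 protein while DNA is copied. They were taken by symbol: H1-1 to H1-6, and every gene named H2AC, H2BC, H3C or H4C followed by digits. The annotation holds 69 such genes, 6 of H1, 17 of H2A, 18 of H2B, 13 of H3 and 15 of H4, of which 55 lie on chromosome 6, 13 on chromosome 1 and 1 on chromosome 12. A gene was kept in a count table when its mean over that table's libraries reached 1 CPM (counts scaled to the library's total), which kept 54 of the 69 in at least 1 of 5 tables. The kept genes numbered 46 in the BCOR table, 47 in the KDM2B table, 45 in the construct table, 46 in the inhibitor table and 33 in the J2_7 table, out of 60605 features in each of the first 4 tables and 50037 in the last. All of them passed the filter on low counts in their table. 44 genes were kept in all of the first 4 tables, 25 in all 5, and 6 in the J2_7 table alone. The J2_7 table carried the current symbols, with 0 entries under an older HIST symbol. By GENCODE 44 ID the first 4 tables have rows for 67 of the 69 genes. H2AC18 and H2AC19 had no row under those IDs, and rows under other IDs were not sought. They are therefore described from the J2_7 table only.

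RNA was sequenced from K562, a human chronic myeloid leukaemia cell line with erythroid features, in 96 libraries that fall into 32 groups of 3. PRC1.1 is the Polycomb complex that KDM2B brings to unmethylated CpG islands and for which BCOR is a scaffold subunit; the study used a degron to remove these proteins. Cells carrying BCOR or KDM2B fused to mAID, a short auxin-inducible degron, were given 5PhIAA, the ligand that triggers degradation of a tagged protein, for 2, 8, 24 or 72 h, against untreated cells. In the construct table the labels name cells EV, LF, SF, dLRRS and dCxxC, each with DMSO or 5PhIAA, and the table's title names KDM2B mutants. In the inhibitor table cells received DMSO, 5PhIAA, GSK343 (an inhibitor of EZH2, the PRC2 methyltransferase) or both; the labels name only K562 and the table's title KDM2B-mAID. The J2_7 table holds KDM2B-mAID cells and KDM2B-mAID J2_7 cells with the same 4 treatments, and its title names a JARID2 AEBP2 double knockout and wild type, while the labels do not say that J2_7 is that knockout. All groups of the KDM2B-mAID tables, DMSO included, therefore carry the tagged allele as far as the titles say. The labels spell out none of the construct names, give no dose, and give a time only in the 2 time courses, which have no vehicle group and no untagged group. Protein loss was not measured in these data. Nothing in the labels says whether the 3 libraries of a group came from separate cultures, so the p-values measure the spread between these libraries, which may be technical.

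Histones of these families are made almost entirely in S phase, when their genes are transcribed in nuclear histone locus bodies under the coactivator NPAT. Their messengers differ from nearly all others in having no introns and no poly(A) tail: they end in a conserved stem-loop that is bound by SLBP, cut with the help of the U7 particle, and destroyed when DNA synthesis stops. A library made from ribosome-depleted total RNA therefore holds them, while one primed on poly(A) tails holds mainly the minority of messengers that carry a tail.

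The stem-loop was read from the hg38 genome after the stop codon of each gene, and the sites below are shown because the way these messengers end bears on how each table counts them. All 69 genes had a match within 200 bases of the stop codon, beginning between 25 and 70 bases after it (median 38). In 68 genes the canonical GENCODE 44 transcript ended 0 to 20 bases past the stem-loop, in 50 of them exactly 5 bases past it. H2BC21 was the exception, with an end 1729 bases further on. All 69 canonical transcripts had a single exon. The capitals mark the 16-base stem-loop, printed 5′ to 3′ on the gene's own strand.
H4C3: ccaaaGGCCCTTTTCAGGGCCgctca
H4C9: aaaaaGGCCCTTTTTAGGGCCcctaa
H1-2: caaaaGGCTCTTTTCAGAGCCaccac
H2AC11: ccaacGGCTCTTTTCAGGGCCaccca
H2BC12: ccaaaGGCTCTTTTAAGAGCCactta
H2BC21: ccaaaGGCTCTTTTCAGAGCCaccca
H3C12: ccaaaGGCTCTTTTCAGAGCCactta
These sites lie at chr6:26104312-26104337 (plus strand) for H4C3, chr6:27139649-27139674 (plus) for H4C9, chr6:26055739-26055764 (minus) for H1-2, chr6:27133510-27133535 (plus) for H2AC11, chr6:27146361-27146386 (minus) for H2BC12, chr1:149886183-149886208 (minus) for H2BC21 and chr6:27890315-27890340 (minus) for H3C12. The form shared by H1-2, H2BC21 and H3C12 was found in 40 of the 69 genes, that of H4C3 in 10, that of H2BC12 in 9 and that of H4C9 in 4, while 6 further forms, among them that of H2AC11, occurred in 1 gene each.

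Promoters from RefSeq (GRCh38.p14, 250 bases before to 50 after the start) matched 64 of the 69 genes. TATAAA was present on either strand in 42 of the 64 (65.6%, against 12% of all 27305 promoters of that length), CCAAT in 54 (84.4% against 35.7%) and the octamer ATTTGCAT in 26 (40.6% against 1.8%). The octamer was found in 14 of 18 H2B and 11 of 16 H2A promoters, in 1 of 11 H3 promoters and in 0 of 6 H1 and 0 of 13 H4 promoters. GGTCC, a core of the H4-specific site for HINFP, was found in 12 of 13 H4 promoters and 21 of the 64, a share of 32.8% that lies under the 46.1% of all promoters. The 2 promoters below are single examples of an H4 and an H2B gene, with matches to these 4 motifs on either strand in capitals. They are not typical in every motif: CCAAT, present in H4C9, was found in 3 of 13 H4 promoters. TATAAA, absent from H4C9, was found in 7 of the 13, and GGTCC, present in H2BC12, in 4 of 18 H2B promoters. Each motif was searched alone; CCAAT and GGTCC matches share letters in some promoters, such as that of H3C2, and a TATAAA can share letters with its own reverse, as in H2BC12.
H4C9: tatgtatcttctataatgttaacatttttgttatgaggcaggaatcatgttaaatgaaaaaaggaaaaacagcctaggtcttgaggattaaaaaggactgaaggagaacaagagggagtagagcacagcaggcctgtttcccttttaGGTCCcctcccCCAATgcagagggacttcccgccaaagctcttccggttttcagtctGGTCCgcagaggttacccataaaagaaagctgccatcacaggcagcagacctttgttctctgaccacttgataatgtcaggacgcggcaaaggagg
H2BC12: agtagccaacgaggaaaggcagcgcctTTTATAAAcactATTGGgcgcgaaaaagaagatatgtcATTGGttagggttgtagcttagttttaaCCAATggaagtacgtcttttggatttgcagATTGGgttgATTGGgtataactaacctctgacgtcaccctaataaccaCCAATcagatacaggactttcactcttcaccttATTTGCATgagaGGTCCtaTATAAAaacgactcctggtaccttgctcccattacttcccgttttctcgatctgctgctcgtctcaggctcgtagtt
These windows are chr6:27139032-27139331 on the plus strand and chr6:27146809-27147108 on the minus strand. A motif match describes these letters only and is not evidence of binding.

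In the 4 tables with Ensembl IDs all 5 families were well represented. H1 genes made up 26.5 to 28.9% of the summed histone CPM, H2A genes 22 to 24.8%, H2B genes 28.7 to 32.6%, H3 genes 8.53 to 9.97% and H4 genes 9.60 to 11.1%. Per kilobase of canonical transcript, the linker histone gene H1-2 had the highest mean level in each of these tables, with 2218 CPM per kb in the construct table as its lowest value and 2673 for KDM2B as its highest. H2AC11, H2BC12 and H3C2 held the next 3 places in each table, in different orders: in the BCOR table they stood at 1616, 1350 and 1400 CPM per kb. H4C3 stood at 877 CPM per kb in the BCOR table, and H4C5, another H4 gene, at 867. H2AC17 was 1 of the lowest, at 3.70 CPM per kb in the BCOR table. It overlaps part of the annotated span of H3C12. H4C3 lies inside that of H2BC4, and the strand setting of the counting is not given in the sources used here, so reads of such neighbours may have been shared.

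Giving 5PhIAA to BCOR-mAID cells was followed by lower levels of most histone genes. A gene was called when edgeR's quasi-likelihood test gave a Benjamini-Hochberg adjusted p under 0.05, taken over all genes tested in the table, and an absolute log2 fold change above 0.585. Against untreated cells, 1 of 46 histone genes was called lower after 2 h of 5PhIAA (0.213% of all 14110 genes tested were called lower), 2 of 46 after 8 h (background 0.262%), 34 of 46 after 24 h (background 1.16%) and 41 of 46 after 72 h (background 2.37%). None was called higher by edgeR at any of the 4 times, nor by DESeq2, and the median log2 fold change of the 46 went from -0.29 at 2 h to -0.31, -0.67 and -0.90 at 8, 24 and 72 h. Over all genes tested the median was 0.01 at 24 h and -0.0013 at 72 h. At an unadjusted p under 0.05 there were 25, 26, 42 and 44 of the 46 at the 4 times, in either direction. Of all 14110 genes tested there were 2081, 3175, 3966 and 4459. At 72 h all 46 had a negative log2 fold change. In bulk RNA, fewer cells in S phase and less histone RNA per cell cannot be told apart.

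H4C9, an H4 gene at chr6:27139282-27139678 on the plus strand, was called at every time. Untreated libraries had 188.5, 178 and 144 CPM. After 2 h they had 117, 112 and 95.5 CPM, and after 8 h 84.2, 96.2 and 93.6. After 24 h the values were 76.2, 68.8 and 69.1 CPM, and after 72 h 55.9, 57.9 and 64.5. No treated library at any time reached the lowest untreated one. The log2 fold change was -0.66 (SE 0.09, edgeR adjusted p 0.000263) at 2 h and -1.52 (SE 0.10, edgeR adjusted p 2.95e-10) at 72 h, when it was the most negative of the 46. The call at 2 h ended without untreated replicate 1 or 2 h replicate 3. At 8 h, H1-3 was the other gene called (-0.60, SE 0.12, edgeR adjusted p 0.00572), and the count went to 7 without 8 h replicate 2, 5 without untreated replicate 3 and 1 without 8 h replicate 1 or untreated replicate 1.

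H4C3, an H4 gene at chr6:26103933-26104337 on the plus strand, was called at 24 and 72 h. It had 551, 461 and 413 CPM in untreated libraries and 456, 426 and 371 after 2 h, which overlapped. After 24 h it had 282, 247 and 239.9 CPM, and after 72 h 229, 237 and 273. Those 6 libraries lay under all untreated libraries, with a log2 fold change of -0.89 (SE 0.11, edgeR adjusted p 4.13e-05) at 24 h and -0.95 (SE 0.11, edgeR adjusted p 7.95e-06) at 72 h.

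H1-2 (chr6:26055740-26056470, minus strand) encodes a linker histone. It had 2622, 2437 and 2347 CPM untreated, and 1414, 1394 and 1546 CPM at 72 h. The groups did not overlap, and the log2 fold change was -0.77 (SE 0.07, edgeR adjusted p 1.41e-07). H3C2, an H3 gene, went from 1056, 918 and 876 CPM to 501, 464 and 540 at 72 h, and H2AC11, an H2A gene, from 1073, 1049 and 941 CPM to 587, 529 and 604. In both genes every library at 72 h was under every untreated library.

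**Figure D1:**
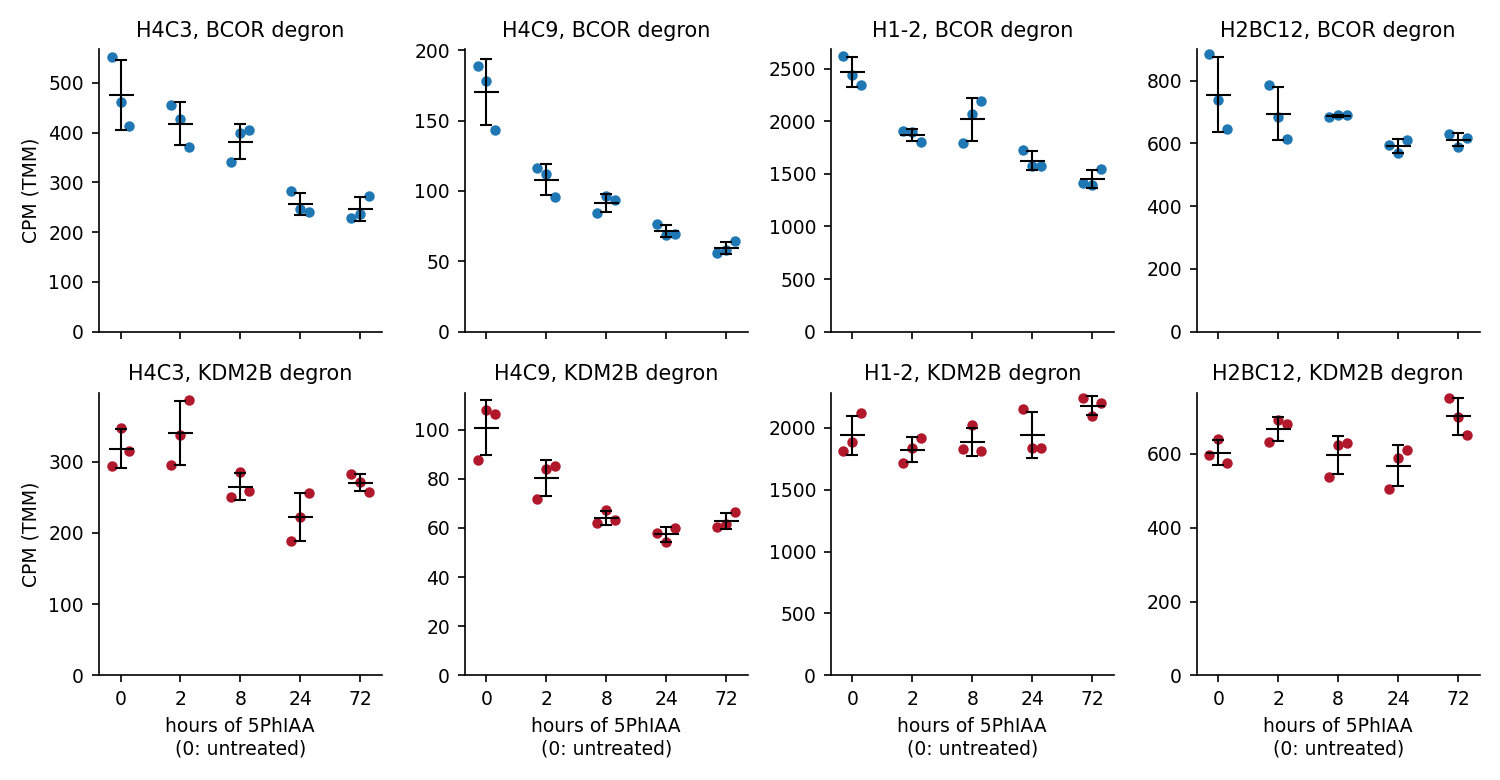
CPM (TMM-scaled) of H4C3, H4C9, H1-2 and H2BC12 in each library of the BCOR (blue) and KDM2B (red) degron time courses, against hours of 5PhIAA; points are libraries, bars the mean and SD of 3. H4C9 was lower from 2 h in the BCOR course, and in the KDM2B course H1-2 at 24 and 72 h overlapped untreated cells.

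By family, the calls at 24 h took in 4 of 4 H1 genes, 5 of 13 H2A genes, 10 of 14 H2B genes, 6 of 6 H3 genes and 9 of 9 H4 genes. At 72 h they took in 4 of 4, 11 of 13, 11 of 14, 6 of 6 and 9 of 9. The family medians at 72 h lay close together: -0.93 for H1, -0.83 for H2A, -0.84 for H2B, -0.93 for H3 and -0.95 for H4. The 5 genes not called at 72 h were H2AC17 (log2 fold change -0.06), H2AC25 (-0.35), H2BC6 (-0.08), H2BC12 (-0.31) and H2BC21 (-0.54). H2BC6 and H2AC17 are among the lowest in level. H2BC12 is the highest H2B gene, with 884, 738 and 646 CPM untreated and 628, 588 and 618 at 72 h, a set of values that do not overlap but change by less than the fold threshold (SE 0.09, edgeR adjusted p 0.0223). H2BC21 was called without untreated replicate 3 (-0.62) or 72 h replicate 3 (-0.59). Between 24 and 72 h the edgeR test called 0 of 46 genes (0.581% of all genes were called in either direction), DESeq2 also 0, with a median log2 fold change of -0.15. At an unadjusted p under 0.05 there were 13 of the 46, against 2285 of all 14110 genes tested.

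**Figure D2:**
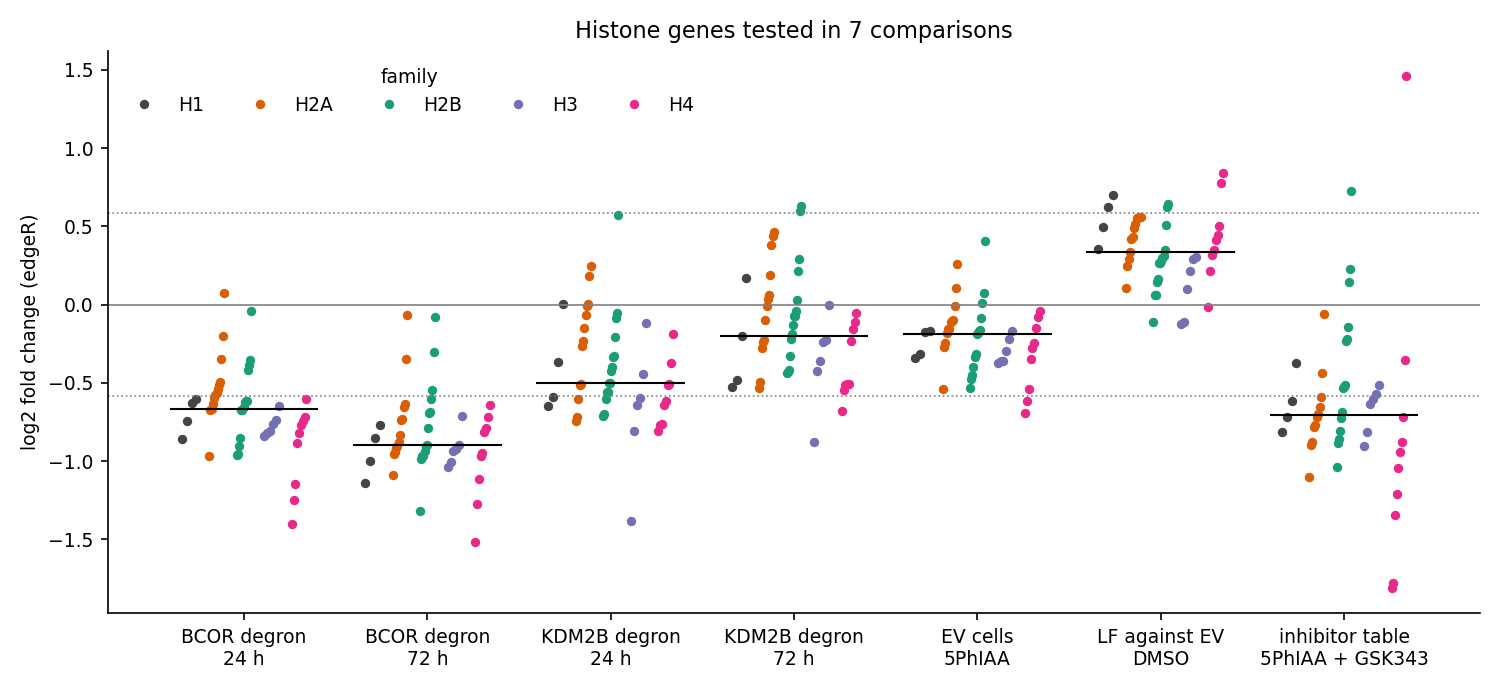
log2 fold change (edgeR) of every histone gene tested, by family, in 7 comparisons; the black line is the median of the genes, dotted lines mark 0.585 in either direction. Medians were -0.67 and -0.90 for the BCOR degron at 24 and 72 h, -0.50 and -0.20 for the KDM2B degron, -0.19 for EV cells with 5PhIAA, 0.34 for LF against EV cells and -0.71 for 5PhIAA plus GSK343 in the inhibitor table.

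Summed over all 69 symbols, histone genes took 1.51 to 1.84% of the CPM in untreated BCOR degron libraries, 1.03 to 1.12% at 24 h and 0.898 to 1.01% at 72 h. The 2 h and 8 h libraries were between 1.25 and 1.51%. In the same comparisons other genes of S phase and of histone RNA processing did not pass the thresholds. Of 12 genes for histone transcription and processing (among them SLBP, NPAT and the U7 protein gene LSM11) 0 were called by edgeR at 24 or 72 h. Nor were any of 22 S-phase genes such as the MCM helicase genes and PCNA, of 12 G2/M genes, or of 8 replacement histone genes, most of which are expressed outside S phase from messengers with a poly(A) tail (H2AX, among them, also gives a stem-loop messenger in S phase). Their median log2 fold changes at 72 h were -0.06, -0.15, 0.01 and -0.00054. SLBP was at -0.07 (SE 0.07) at 72 h and MCM5 at -0.31 (SE 0.07, edgeR adjusted p 0.00252), under the fold threshold. CDKN1C, a cell-cycle inhibitor gene, was called higher at 24 h (0.89) and 72 h (0.90), and CDKN1A, which encodes p21, at 72 h (1.70, SE 0.33). Other RNAs without a poly(A) tail also moved: at 24 h 3 of 7 were called lower, RN7SL1 (-1.04), SCARNA5 (-1.09) and SNORD3A (-1.83). At 72 h 0 of the 7 were called lower, when RN7SL1 was at -0.54 and SNORD3A at -1.02, and NEAT1, a nuclear RNA whose long form has no tail, was called higher (1.06). The part of these RNAs in the histone result was not tested.

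**Figure D3:**
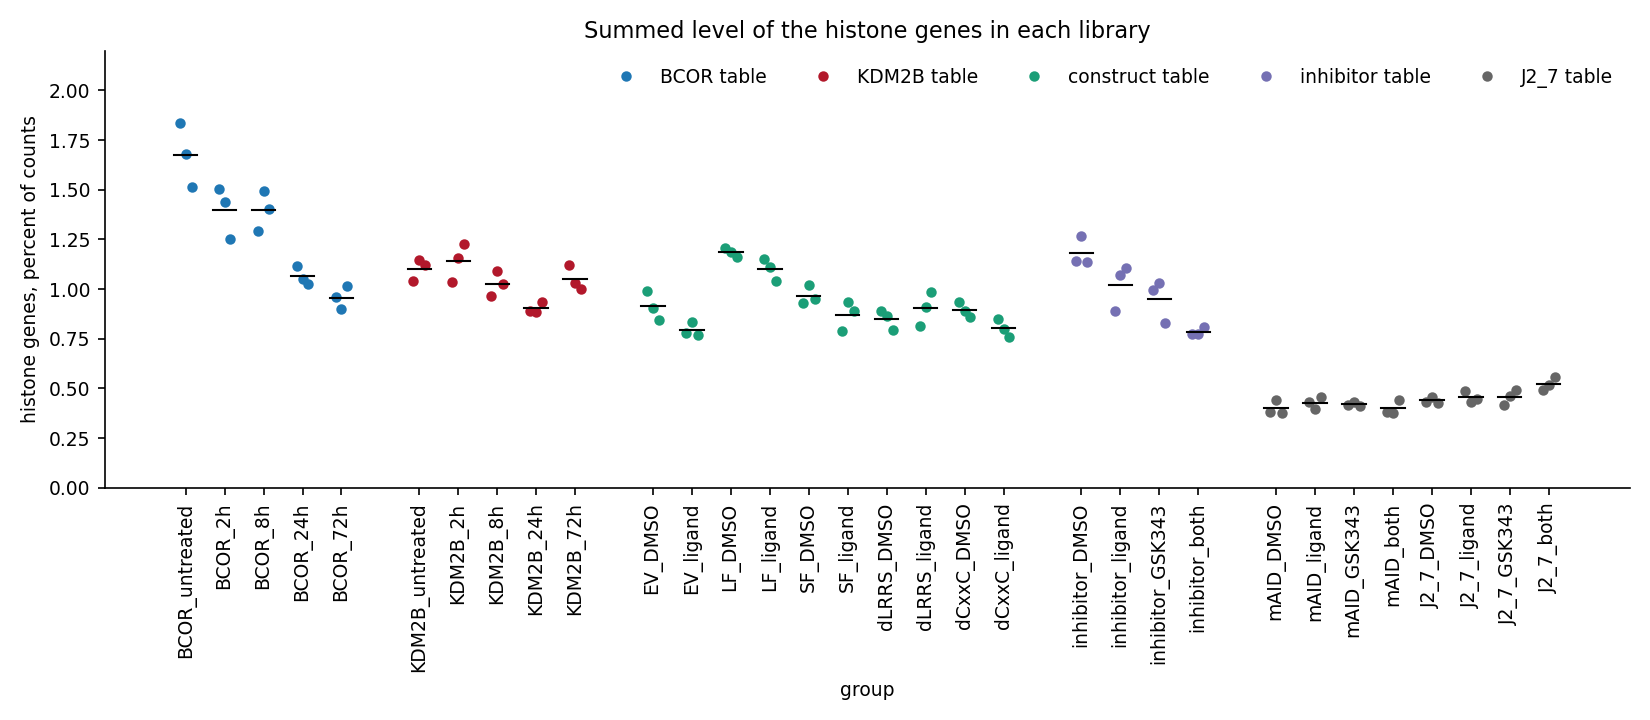
Summed CPM of the 69 histone genes as a percent of all counts in each library, by group and table; lines are the mean of 3 libraries, "ligand" is 5PhIAA and "both" is 5PhIAA plus GSK343. Libraries of the BCOR course went from 1.51 to 1.84% untreated to 0.898 to 1.01% at 72 h, and the J2_7 table held 0.378 to 0.558%.

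In the KDM2B degron cells fewer histone genes changed, and most calls were made at 24 h. The edgeR test called 0 of 47 genes after 2 h (1.76% of 14524 genes called in either direction, DESeq2 also 0). At an unadjusted p under 0.05 there were 9 of the 47 at 2 h, against 2798 of the 14524. The edgeR test called 1 lower after 8 h (background 0.558%), 17 lower after 24 h (background 2.97%), and 2 lower (background 3.96%) and 1 higher (background 6.55%) after 72 h. Medians were 0.09, -0.14, -0.50 and -0.20 on the log2 scale. The 17 at 24 h were 2 of 4 H1, 3 of 13 H2A, 3 of 15 H2B, 4 of 6 H3 and 5 of 9 H4 genes.

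H3C12, an H3 gene, had the largest change at 24 h. It had 92.7, 114 and 92.7 CPM untreated and 33.7, 38.9 and 42.2 after 24 h (log2 fold change -1.38, SE 0.15, edgeR adjusted p 9.11e-06). At 72 h it had 68.0, 53.5 and 41.5 CPM, still under all untreated libraries (-0.88, edgeR adjusted p 0.000611). H4C9 had 87.8, 108 and 106 CPM untreated and 58.0, 54.1 and 60.2 after 24 h, without overlap, a log2 fold change of -0.81 (SE 0.09, edgeR adjusted p 7.39e-07); it was the gene called at 8 h (-0.65) and was called at 72 h (-0.68). H4C3 had 293, 347 and 315 CPM untreated and 189, 223 and 256 after 24 h. These did not overlap, but the log2 fold change of -0.52 (SE 0.10, edgeR adjusted p 0.000858) was under the fold threshold, and it was called without 24 h replicate 3 (-0.63). H1-2 had 1809, 1890 and 2119 CPM untreated and 2154, 1834 and 1839 after 24 h, with overlapping libraries and a log2 fold change of 0.003. H2BC6 was the gene called higher at 72 h (0.63, SE 0.19, edgeR adjusted p 0.0159), from 3.97, 4.14 and 3.96 CPM to 6.79, 6.28 and 5.65.

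From 24 to 72 h all 47 genes had a positive log2 fold change, with a median of 0.26. None was called by edgeR (background 1.86% in either direction) or DESeq2. At an unadjusted p under 0.05 there were 28 of the 47, against 3570 of all 14524 genes tested. The summed share was 1.04 to 1.15% untreated, 0.885 to 0.935% at 24 h and 1.0 to 1.12% at 72 h. At 24 h 0 of 12 processing genes, 0 of 22 S-phase genes, 0 of 12 G2/M genes and 0 of 7 RNAs without a poly(A) tail were called by edgeR. CDKN1A was called higher (1.42, SE 0.10). The BCOR and KDM2B courses are in separate tables, and the difference between them was not tested.

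The construct table asks how 5PhIAA acts in cells with each construct. In EV cells 1 of 45 histone genes was called lower (background 0.321% of 15910 genes), again H4C9. It had 61.3, 55.0 and 48.6 CPM with DMSO and 30.2, 37.9 and 35.6 with 5PhIAA (log2 fold change -0.62, SE 0.10, edgeR adjusted p 2.86e-05). The groups did not overlap, but the call ended without EV DMSO replicate 1 or EV 5PhIAA replicate 1, the shallowest library of the table. The median over the 45 genes was -0.19, with 40 negative values. Of the 45, 25 had an unadjusted p under 0.05, against 3909 of all 15910 genes tested. In LF, SF, dLRRS and dCxxC cells 5PhIAA gave 0 calls by edgeR and 0 by DESeq2 (background in either direction 0.00629%, 0.0189%, 3.41% and 0.0189%). At an unadjusted p under 0.05 there were 10, 20, 5 and 21 of the 45, against 1656, 1201, 3244 and 1668 of all 15910. Medians of the 45 were -0.13, -0.17, 0.09 and -0.18, and H4C9 was at -0.28, -0.38, -0.16 and -0.31. The differences of the 5PhIAA effect from that in EV cells were tested directly. None of the 45 genes was called for LF, SF, dLRRS or dCxxC by edgeR or DESeq2 (background 0.748%, 0.729%, 0.0377% and 1.51%). At an unadjusted p under 0.05 there were 6, 3, 31 and 4 of the 45, against 1971, 1667, 2551 and 1876 of all 15910. For dLRRS the median difference was 0.35, 42 of 45 were positive, and the lowest edgeR adjusted p was 0.0669.

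With DMSO, LF cells held more histone RNA than EV cells. The edgeR test called 6 of 45 genes higher (background 6.9%) and 0 lower (background 8.36%), with a median log2 fold change of 0.34. The 6 were H4C9 (0.84), H4C5 (0.78), H1-4 (0.70), H2BC13 (0.64), H1-3 (0.62) and H2BC5 (0.62). H4C9 had 105.5, 98.0 and 92.8 CPM in LF cells, above the 3 EV values given before (SE 0.09, edgeR adjusted p 4.48e-10). H4C5, an H4 gene, had 300.2, 282 and 245 CPM in EV cells and 458, 503 and 458 in LF cells. H1-4, a linker histone gene, had 567, 478 and 420 CPM in EV cells and 753, 855 and 777 in LF cells. In all 3 genes the groups were apart. The summed share was 0.846 to 0.991% in EV and 1.16 to 1.21% in LF cells. Beside these, H1-10, a replacement linker histone gene, was called higher (0.71), CDKN1A lower (-1.28), CDKN1B higher (0.61) and NEAT1 lower (-1.07). Of 8 K562 marker genes 4 were called lower (background 8.36%) and 1 higher (background 6.9%) in LF cells. The part of any of these in the histone difference was not tested.

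The other constructs are compared with the same EV libraries, so the values are given side by side. SF against EV gave 0 calls by edgeR and 1 by DESeq2 (background 13.6% in either direction), with a median of 0.08. At an unadjusted p under 0.05 there were 18 histone genes, against 7616 of all 15910 genes tested. There H4C9 was at 0.58 (SE 0.09), just under the threshold. In dLRRS cells H4C9 was called higher (0.60, background 4.82%), and H2BC26, an H2B gene on chromosome 1, was called lower (-0.77, background 7.13%). In dCxxC cells H2BC26 was called higher (0.83, background 10.3%) and H4C9 was at -0.24. H2BC26 had 32.9, 31.1 and 23.2 CPM in EV cells, 18.4, 18.1 and 15.1 in dLRRS cells and 54.6, 55.6 and 46.2 in dCxxC cells, so the 3 groups did not overlap. It has an annotated transcript that runs 4551 bases past the stem-loop.

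In the inhibitor table histone genes were mostly lower with 5PhIAA and GSK343 together, while each agent alone gave few calls. With 5PhIAA the edgeR test called 0 of 46 genes and DESeq2 called 2 (background 2.55% of 13374 genes in either direction, median of the 46 -0.22). At an unadjusted p under 0.05 there were 21 of the 46, against 2210 of the 13374. GSK343 alone gave 3 lower calls (background 0.292%), H1-3 (-0.62), H4C4 (-0.87) and H4C9 (-0.78), and 1 higher call (background 4.29%), H4C14 (1.5); the median was -0.34. The 4 calls went to 10 without GSK343 replicate 2, and to 2 without DMSO replicate 2 or GSK343 replicate 3. With both agents 30 genes were called lower (background 1.14%) and 1 higher (background 9.53%), with a median of -0.71 against 0.0097 over all genes tested. The 30 were 3 of 4 H1, 9 of 11 H2A, 6 of 15 H2B, 4 of 6 H3 and 8 of 10 H4 genes. The summed share was 1.14 to 1.27% with DMSO and 0.772 to 0.811% with both agents.

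H4C4 and H4C9, both H4 genes, fell most. H4C4 had 109, 130.5 and 110.2 CPM with DMSO, 64.3, 84.9 and 90.7 with 5PhIAA, 69.3, 80.2 and 42.0 with GSK343, and 28.8, 27.8 and 41.9 with both (log2 fold change -1.81, SE 0.24, edgeR adjusted p 0.000349). H4C9 had 75.3, 84.3 and 76.5 CPM with DMSO and 21.3, 19.6 and 27.3 with both (-1.78, SE 0.16). H4C3 had 292, 358 and 329 CPM with DMSO and 126, 129 and 166 with both (-1.21, SE 0.18, edgeR adjusted p 0.000761). The groups with both agents lay apart from DMSO in all 3 genes. H1-2 had 1835, 2020 and 1818 CPM with DMSO and 1448, 1499 and 1432 with both, without overlap but under the fold threshold (-0.37). H4C14, the gene called higher (1.46), is low: 0.696, 0.737 and 1.32 CPM with DMSO and 2.30, 2.61 and 2.61 with both, and it has a near-identical copy, H4C15, with which its reads may be shared. The interaction of the 2 agents was tested directly and gave 0 calls by edgeR and DESeq2 (background 0%), with a median of -0.10. At an unadjusted p under 0.05 there were 7 histone genes, against 497 of all 13374 genes tested. H3C2 (-0.63) was no longer called without DMSO replicate 2 (-0.58) or with scaling by library totals (-0.57).

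Beside the combined treatment, MCM5 was the 1 of 22 S-phase genes called (-0.61, SE 0.08), and 0 of 12 processing genes and 0 of 12 G2/M genes were. S-phase genes were still mostly lower. Outside E2F1, CCNE1, CCNE2 and RRM2, each had all libraries with both agents under all DMSO libraries. MCM2 had 223, 218 and 211 CPM with DMSO and 156, 158 and 158 with both. MCM4 had 629, 611 and 627 CPM with DMSO and 457, 464 and 470 with both. CCNE2 was higher without overlap. H2AX went from 159, 176 and 148 CPM to 107, 109 and 107, while H3-3A and H3-3B overlapped. CDKN1A (2.33) and CDKN1C (1.29) were called higher. Of 6 RNAs without a poly(A) tail, RN7SL1 was called lower (-0.92) and NEAT1 higher (0.79). The part of these in the histone result was not tested.

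The comparisons with most lower calls in 3 tables share no libraries: BCOR degron at 72 h, KDM2B degron at 24 h, and both agents in the inhibitor table. All 17 genes of the KDM2B comparison were among the 41 of the BCOR comparison (100% and 41.5% of the lists), and so were all 30 of the inhibitor comparison (100% and 73.2%). The KDM2B and inhibitor comparisons shared 16 genes, 94.1% of the 17 and 53.3% of the 30. Those 16 were H1-3, H1-5, H2AC4, H2AC12, H2AC16, H2BC9, H2BC13, H2BC17, H3C1, H3C7, H3C12, H4C1, H4C4, H4C9, H4C11 and H4C12. Since 41 of 46 genes were called in the BCOR comparison, its overlaps have little room to differ. The inhibitor comparison called 30 of 46 lower, so its overlap with the 17 also follows in part from the size of the lists. The overlap over all genes tested was not counted. Over the 22 comparisons between groups in the 4 tables, H4C9 was called lower in 10 and higher in 2, H1-3 lower in 6 and higher in 1, and H2BC12 in 0. Many of the 22 share control libraries within a table, so these calls are not separate observations.

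The J2_7 table had a different histone profile from the other 4. There H4C3 alone took 38.5 to 56.9% of the histone CPM of a library (median 49.0%), against 1.63 to 3.15% in the other 4 tables. The 3 highest genes, H4C3, H1-2 and H2BC12, took 81.1 to 88.3%, against 26.1 to 36.4% for the highest 3 of the libraries in the other tables. The H4 family made up 49.4% of the summed level, H3 0.488% and H2A 6.83%. Between 25 and 40 histone genes reached 1 CPM in a library, against 44 to 49. The summed share was 0.378 to 0.558% of all counts.

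Of the 26 genes whose mean reached 100 CPM in the inhibitor table, 13 had under 5 CPM and 5 under 1 CPM in the J2_7 table, and 2 were higher there. Their median was 254 CPM in the inhibitor table and 6.62 in the J2_7 table. H3C2 had a mean of 472 CPM in the former and 1.38 in the latter, H4C5 244 and 0.847, and H2AC11 484 and 4.92. H4C3 went the other way, from 239 to 2140 CPM, and H2BC12 was at 642 and 758. RN7SL1, a signal recognition particle RNA without a poly(A) tail, had 5.28 to 19 CPM in the J2_7 table and 1017 to 6049 in the other 4. H3-3A, a replacement H3 gene with a poly(A) tail, had 1463 to 1877 CPM there against 28.6 to 49.5. The labels of these samples give ribosome depletion and also a 3′-end method (Smart-3SEQ), without saying which made the counts. The tables were counted separately, so protocol, annotation and cells cannot be told apart in these differences.

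**Figure D4:**
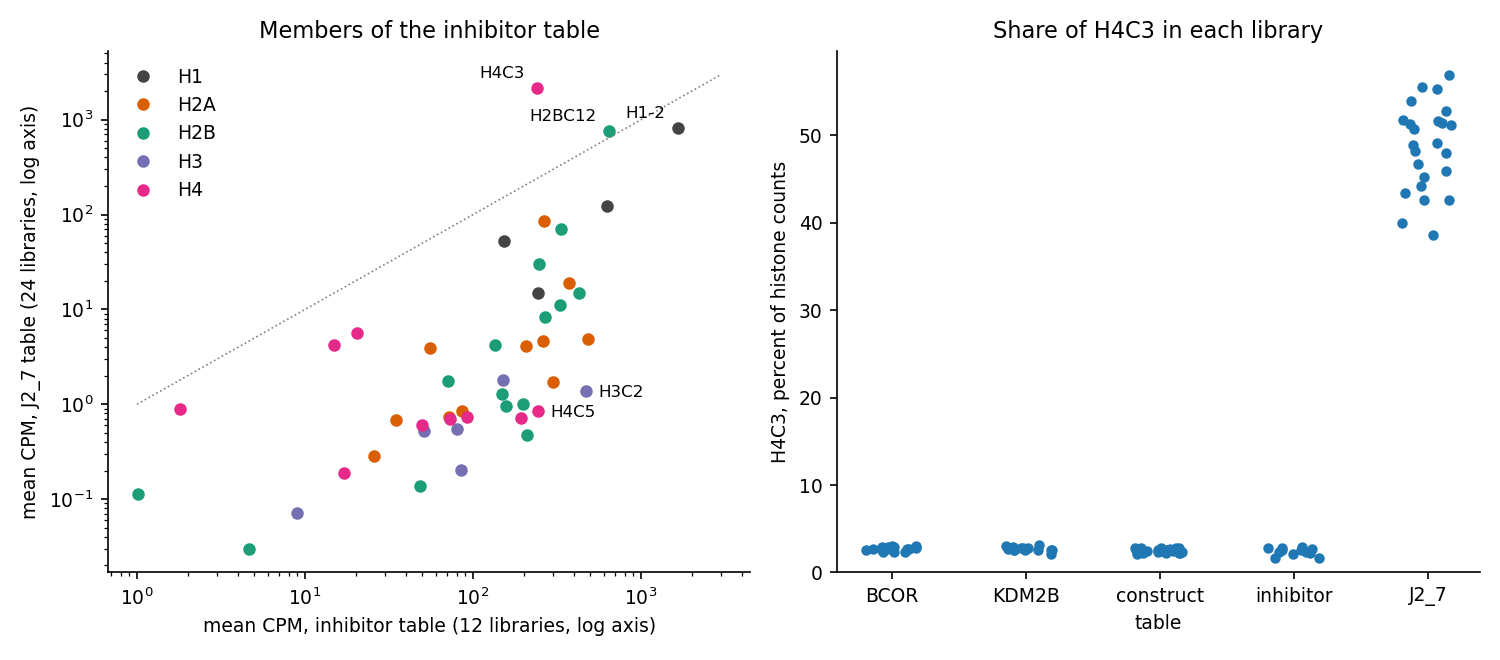
Left, mean CPM of each histone gene kept in the inhibitor table against its mean CPM in the J2_7 table, both axes log, values under 0.03 drawn at 0.03, the dotted line marks equal levels. Right, percent of histone CPM taken by H4C3 in each library: 38.5 to 56.9% in the J2_7 table and 1.63 to 3.15% in the others.

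Features of the messenger's end were set beside the level in the J2_7 table. Of the 19 genes whose mean reached 5 CPM, 5 had an annotated transcript more than 100 bases past the stem-loop and 8 (42.1%) had AATAAA or ATTAAA within 500 bases after it. Of the other 50, 12 and 16 (32%) did. The longest run of A in the canonical transcript had a median of 4 in both sets and ranged from 3 to 7. H4C3 had a run of 7 and its first such hexamer 160 bases past the stem-loop, H1-2 a run of 6 and a hexamer 12 bases past it, and H2BC12 a run of 3 and no hexamer in the window. These counts are a description of sequence, with no test.

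In KDM2B-mAID cells of the J2_7 table, 5PhIAA and GSK343 alone gave 0 calls among 33 genes by edgeR and DESeq2 (background in either direction 2.31% and 0.662% of 14649 genes). At an unadjusted p under 0.05 there were 11 and 8 of the 33, against 1948 and 2233 of the 14649. Both agents together gave 6 higher calls (background 5.5%) and 1 lower (background 0.806%). The 6 were H2AC8 (0.76), H2AC18 (0.73), H2AC19 (0.73), H2BC11 (0.67), H2AC25 (0.65) and H4C15 (0.64); H2AC18 and H2AC19 are near-identical copies with nearly the same values and count as 1 observation. H2AC18 had 56.7, 62.8 and 53.2 CPM with DMSO and 105, 94.7 and 86.1 with both agents, without overlap (SE 0.08, edgeR adjusted p 1.34e-07). H2AC8 had 14.9, 14.5 and 12.8 CPM with DMSO and 25.9, 21.7 and 24.3 with both, also apart. H2BC17 (-1.79) was called lower at 0.148 to 1.33 CPM in these libraries, and lost its call under DESeq2 and without any 1 of the 6 libraries. H4C3 had 2013, 2511 and 2092 CPM with DMSO and 1630, 1612 and 1698 with both (log2 fold change -0.42, SE 0.11, edgeR adjusted p 0.00664), lower without overlap but under the fold threshold. The count of 7 went to 4 without DMSO replicate 3. In some genes the libraries with both agents lay far apart. H1-4 had 140.2, 150 and 93.5 CPM with DMSO and 33.6, 42.2 and 189 with both (-0.48, SE 0.53, edgeR adjusted p 0.596). The groups overlapped through replicate 3 with both agents, without which H1-4 was called lower (-1.71). Other groups were spread in H1-4 too, with 187, 181 and 82.6 CPM in J2_7 cells with DMSO. Replicates 1 and 2 with both agents were under every other library of the table, so replicate 3 cannot be singled out as the odd one. H2AC20, an H2A gene, had 90.6, 90.1 and 56.7 CPM with DMSO and 22.3, 27.3 and 72.2 with both (-0.90, SE 0.50, edgeR adjusted p 0.248). It was not called without replicate 3 with both agents (-1.63) and was called lower without the low-count filter (-0.93). H1-2 (0.56) and H2BC12 (0.54) were under the fold threshold, and H1-2 was called higher without DMSO replicate 1 or replicate 1 or 2 with both agents (0.60 to 0.67), and H2BC12 without DMSO replicate 2 (0.63) or replicate 3 with both (0.61). NPAT was called lower here (-0.79, SE 0.13), as 1 of 12 processing genes.

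In J2_7 cells 5PhIAA gave 0 calls by edgeR and DESeq2 (background 2.39% in either direction). At an unadjusted p under 0.05 there were 8 histone genes, against 2163 of all 14649 genes tested. GSK343 gave 3 higher (background 2.12%), H2AC18 (0.70), H2AC19 (0.70) and H2AC8 (0.62), and both agents 6 higher (background 6.38%), H2BC8 (0.92), H2AC25 (0.82), H2AC18 (0.78), H2AC19 (0.77), H2BC5 (0.69) and H2AC8 (0.59). None was called lower by edgeR. H2BC8, an H2B gene, had 7.22, 9.24 and 8.58 CPM with DMSO and 15.6, 16.2 and 15.4 with both (SE 0.14, edgeR adjusted p 1.03e-05), and the groups were apart. H4C3 was at 0.02 with both agents. With DMSO, J2_7 cells had 5 genes higher than KDM2B-mAID cells (background 3.5%): H3C14 (1.35), H3C15 (1.30), H2BC11 (0.99), H3C4 (0.78) and H2AC6 (0.76). H3C14 and H3C15 are near-identical and had about 1 to 3 CPM. The differences of each effect between J2_7 and KDM2B-mAID cells gave 0 calls by edgeR and DESeq2 for 5PhIAA, GSK343 and both (background 0.00683%, 0.123% and 0.437%). At an unadjusted p under 0.05 there were 2, 4 and 5 histone genes, against 488, 1222 and 1562 of all 14649 genes tested.

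The inhibitor table and the KDM2B-mAID cells of the J2_7 table had the same 4 treatments by their labels, and 25 genes were kept in both. With both agents these 25 had a median log2 fold change of -0.69 in the inhibitor table and 0.03 in KDM2B-mAID cells. Of the 25, 17 were called lower and 0 higher in the inhibitor table, and in KDM2B-mAID cells 1 lower and 3 higher. The libraries of H1-2, H2AC8, H2BC5, H2BC8, H2BC11, H2BC12 and H2BC21 moved in opposite directions in the 2 tables, without overlap in either. The share of all genes that did so was not counted. H4C3 was at -1.21 and -0.42. With GSK343 alone the medians were -0.35 and -0.06, and with 5PhIAA alone -0.19 and 0.09. The tables were normalized separately, and the difference between them was not tested.

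**Figure D5:**
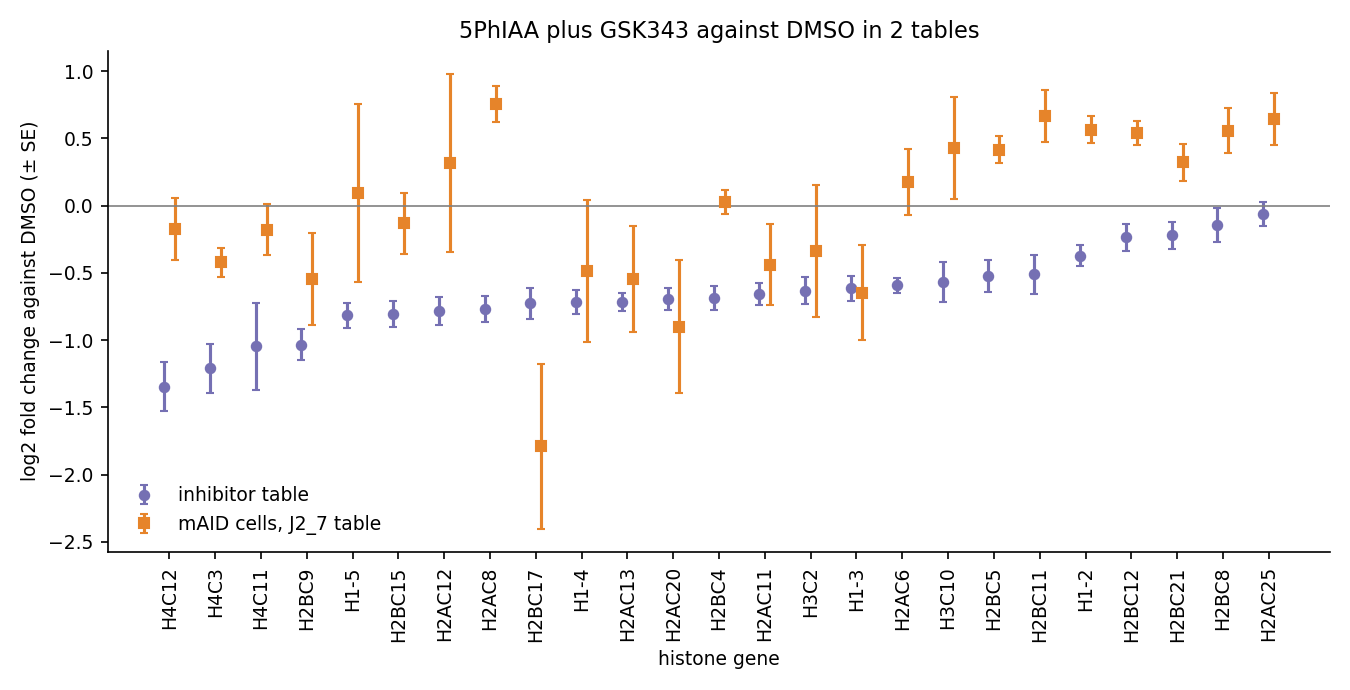
log2 fold change of 25 histone genes with 5PhIAA plus GSK343 against DMSO (edgeR, bars ± SE) in the inhibitor table (purple circles) and in KDM2B-mAID cells of the J2_7 table (orange squares), ordered by the inhibitor table. Medians were -0.69 and 0.03.

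Total counts per library were 5806624 to 18519442 for BCOR and 10429112 to 19910440 for KDM2B. They were 2346542 to 22611557 for the constructs, 4268383 to 24545679 for the inhibitor series and 782663 to 12740071 for J2_7. The lowest was J2_7 GSK343 replicate 1, in which a gene at 1 CPM rests on about 1 count. The erythroid marker GATA1 was at 159 to 213 CPM in the BCOR table and 254 to 329 in the J2_7 table. Of the markers of other cells, CD3E, ALB and KRT5 were at or near 0 in both tables, with a highest value of 0.443 CPM, while EPCAM was at 52.6 to 94.6 CPM in the BCOR table.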

How the data were processed

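Per the labels' protocols, total RNA was prepared with KAPA RNA HyperPrep and RiboErase and sequenced on a NextSeq500; reads were handled in Strand Avadis NGS 3.0 (single-end) or by 2-pass STAR alignment to hg38. For the J2_7 table the labels also give Smart-3SEQ from 100 ng RNA, with Trim Galore 0.6.7. No source used here gives the counting program, strand setting or annotation. Per the labels, the authors tested with DESeq2 at an adjusted p of 0.05 and a log2 fold change of 0.585, and both thresholds were kept.

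The authors deposited 4 tables of raw counts by Ensembl ID (60605 IDs, 60463 matched to a GENCODE 44 symbol) and 1 table of estimated counts by symbol, in which 57.9% of the values above 0 were whole; these estimated counts were rounded, and 92 spike-in entries were left out. Each table was analysed whole with edgeR 4.0.16 (R 4.3.3, limma 3.58.1): low-count filter, TMM scaling, robust quasi-likelihood fit with all groups of the table, and Benjamini-Hochberg adjustment over 14110, 14524, 15910, 13374 and 14649 genes. Group was the only term. DESeq2 1.42.0 was an alternative, and others were library totals, DESeq2 size factors, no filter, the groups of a contrast alone, no fold threshold, a replicate block, other level limits and leaving out each library. The fit was tested on simulated counts. Levels are TMM-scaled CPM. The labels do not say that replicate numbers pair the libraries, and not every pair of same-numbered libraries correlated above 0.1, so the main fit has no block.

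The genes described were chosen by symbol. The genes named are H4C3, the 2 highest of each family in a table, and up to 3 genes at each end of the comparison with most calls; other genes named were chosen after their values were seen. The members and lists were chosen with earlier results of these data known.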

Additional observations from a re-analysis of the deposited data

Results flagged for a closer look

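Some genes had log2 fold changes of opposite sign in separate tables or cells, with no overlap between treated and control libraries in either. The difference was not tested in any of them. They were found by a search of all histone genes kept, and the share of all genes that behaved so was not counted. Between the inhibitor table and the KDM2B-mAID cells of the J2_7 table, with 5PhIAA alone, log2 fold changes were -0.14 and 0.17 for H1-2, -0.20 and 0.45 for H2AC8, -0.19 and 0.49 for H2BC11, and -0.25 and 0.21 for H2BC4. With GSK343 alone H1-2 was at -0.27 and 0.36. With both agents the values were -0.37 and 0.56 for H1-2, -0.77 and 0.76 for H2AC8, -0.51 and 0.67 for H2BC11, -0.23 and 0.54 for H2BC12, -0.22 and 0.32 for H2BC21, -0.53 and 0.42 for H2BC5, and -0.14 and 0.56 for H2BC8.

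Between the BCOR and KDM2B degron courses, H2AC25 was at -0.35 and 0.24 after 24 h. After 72 h H2AC20 was at -0.63 and 0.19, H2AC25 at -0.35 and 0.38, H2BC12 at -0.31 and 0.22, and H2BC21 at -0.54 and 0.29. In the construct table H2BC26 was at -0.28 with 5PhIAA in LF cells and 0.46 in dLRRS cells. Every pair of constructs was searched over 45 genes, and no other gene was found there.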

How the results depend on the processing

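Under the alternatives single genes were followed only in part: H4C3 in every comparison, and the genes named by the rule in each table's comparison with most calls. No called gene among these changed sign, while some that were not called did. Leaving out 1 library gave -0.08 to 0.07 for H1-2 in KDM2B at 24 h, and -0.45 to 0.16 for H2AC17 and -0.28 to 0.10 for H2BC6 in BCOR at 72 h. It gave -0.15 to 0.01 for H4C3 between BCOR 72 and 24 h, and -0.14 to 0.76 for H3C10 with both agents in KDM2B-mAID cells. For the other genes only the counts of calls were kept. Scaling by library totals gave 1 called gene for BCOR at 8 h, and DESeq2 size factors gave 1 for SF against EV. DESeq2 gave 1 for SF against EV and 2 for 5PhIAA in the inhibitor table. Without the low-count filter there were 2 for BCOR at 2 h, 1 for SF against EV, 2 for 5PhIAA in the inhibitor table, 1 for 5PhIAA and 3 for GSK343 in KDM2B-mAID cells, and 1 each for the J2_7 differences in the effects of GSK343 and both agents. Fitting only the groups compared gave 2 for 5PhIAA in EV cells, 2 for 5PhIAA and 2 for GSK343 in the inhibitor table. With no fold threshold the counts were 10 and 14 for BCOR at 2 and 8 h, and 3, 3, 34 and 19 for KDM2B at 2, 8, 24 and 72 h, with 5 between 72 and 24 h. They were 16 and 2 for 5PhIAA in EV and dLRRS cells, 30, 15, 15 and 16 for LF, SF, dLRRS and dCxxC against EV, and 4 and 20 for 5PhIAA and GSK343 in the inhibitor table. In the J2_7 table they were 5, 4 and 12 for 5PhIAA, GSK343 and both in KDM2B-mAID cells, 5, 7 and 10 in J2_7 cells, and 9 between the cells with DMSO. For these, the cause was not tested, beyond the rule being wider. The share of all genes called without a fold threshold is not given, so these counts show no excess of histone genes. At an unadjusted p under 0.05, 7800, 7616, 7725 and 8444 of all 15910 genes passed for LF, SF, dLRRS and dCxxC against EV. For KDM2B at 24 and 72 h, 6146 and 5406 of all 14524 genes did. With GSK343 in the inhibitor series, 3373 of all 13374 genes did.

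Leaving out 1 library at a time gave 0 to 4 calls for BCOR at 2 h, 1 to 7 at 8 h, 23 to 35 at 24 h and 35 to 41 at 72 h. For KDM2B it gave 0 to 1, 1 to 2, 13 to 20 and 3 to 6 at the 4 times, and 0 to 3 between 72 and 24 h. For 5PhIAA in EV cells it gave 0 to 4, and for LF, SF, dLRRS and dCxxC against EV 4 to 7, 0 to 1, 2 to 4 and 1 to 4. In the inhibitor table it gave 0 to 1 for 5PhIAA, 2 to 10 for GSK343 and 26 to 32 for both. In KDM2B-mAID cells it gave 0 to 1 for GSK343 and 4 to 8 for both. KDM2B at 72 h had 6 without untreated replicate 1 and 5 without untreated replicate 3.

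The replicate number was used as a block in the BCOR and J2_7 tables; in the other tables the column numbers match no number in the sample titles, so no block was fitted. With the block, the BCOR counts were 33 at 24 h and 40 at 72 h, and those of J2_7 cells 2 with GSK343 and 5 with both. The labels do not say that the numbers pair libraries: 13 of 15 BCOR libraries and 2 of 24 J2_7 libraries correlated best with their own number. A minimum mean of 5 CPM left 19 genes in the J2_7 table. Depth limits the genes near 1 CPM in the shallowest libraries.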
